A study of Arabidopsis thaliana with 72 samples.

Results

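The genes described here had lower transcript levels at low nitrate in the shoots of Arabidopsis thaliana and nearly the same level at both nitrate supplies in the roots. They were chosen on measured values. For each probe set that the array's gene table pairs with exactly 1 gene, the difference of group means, low minus sufficient nitrate, was averaged over 6 lines in each organ. A gene was a member when this mean difference, called the response below, was -1.5 or less on the log2 scale in shoots and between -0.5 and 0.5 in roots. Of 13513 such probe sets 180 passed both limits. Plastid-encoded genes (10) and genes whose symbol starts with UGT, CYP, GRX, XTH, EXP or IAA (3) were left out, so that 167 members remained, each from a different gene. The 3 genes left out by symbol were IAA29, with a shoot response of -4.23, XTH16 and XTH18. Genes of these families without such a symbol in the gene tables stayed in, among them the glutaredoxins AT4G15700, AT3G62950 and AT5G18600. The shoot and root responses themselves are therefore a description and carry no test. The tests concern the difference between lines in the response, the level of each line, and the level in shoots against roots, which the choice fixes in part, as described with that result.

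The low-nitrate groups grew with 0.4 mM nitrate, given as 0.2 mM Ca(NO3)2 with 5 mM KCl in place of the potassium nitrate. The sufficient-nitrate groups grew with 9 mM nitrate, given as 2 mM Ca(NO3)2 together with 5 mM KNO3. All plants were 21 days old and came from vertical agar plates with 1% sucrose and 16 h of light. El-0 and Fei-0 are natural accessions. KB006 (Kondara x Br-0), NG064 and NG087 (both Nok-3 x Ga-0) and SG063 (Sorbo x Gy-0) are recombinant inbred lines, each of which is a fixed mosaic of its parents. Shoots and roots were hybridised apart, with 3 replicates per line, organ and supply, and each replicate pooled 30 plants from 3 plates, so that the spread between replicates is that between pools.

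Nitrate is both the main nitrogen source of most plants and a signal. When it is scarce, plants slow leaf growth, withdraw nitrogen from the photosynthetic apparatus and keep their roots growing for longer than their leaves. Cytokinin, made partly in roots in response to nitrate, reaches the shoot and supports cell division and expansion there, and leaf expansion itself depends on wall-loosening proteins, wall sensors and auxin- and brassinosteroid-responsive genes.

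Of 72 arrays 68 were used. The 4 arrays labelled Fei-0 replicate 3 were left out by the rule, so Fei-0 has 2 arrays per group. Their member levels, given under the closing observations, go against the labels of both shoot arrays and of the array labelled root at sufficient nitrate. For the array labelled root at low nitrate the members cannot decide, since they were chosen for nearly equal root levels. Array medians lay between 5.72 and 6.04, and in shoots they averaged 5.98 ± 0.04 under low and 5.80 ± 0.05 under sufficient supply (SD over 17 arrays each), a shift against the direction of the members. The labelled organs were checked with 7 shoot markers of photosynthesis and 6 root markers. The summed log2 level of the shoot markers was 83.4 to 92.8 in shoots and 24.2 to 61.3 in roots, and that of the root markers 39.6 to 51.5 in shoots and 56.8 to 69.7 in roots. Within roots, the shoot markers summed to 24.2 to 41.2 at low nitrate, against 47.1 to 61.3 at sufficient nitrate. In bulk tissue, fewer cells of a type and less RNA per cell cannot be told apart.

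Averaged over the members, the level of an array was 5.42 ± 0.22 in low-nitrate shoots and 7.58 ± 0.25 in sufficient-nitrate shoots (SD, n = 17 each). In roots the same mean was 4.13 ± 0.02 at low and 4.19 ± 0.05 at sufficient nitrate. The shoot arrays of the 2 supplies did not overlap, with 4.86 to 5.78 at low and 6.94 to 7.83 at sufficient nitrate. The lowest array at low nitrate was El-0 replicate 1, and the lowest at sufficient nitrate was Fei-0 replicate 2.

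**Figure D1:**
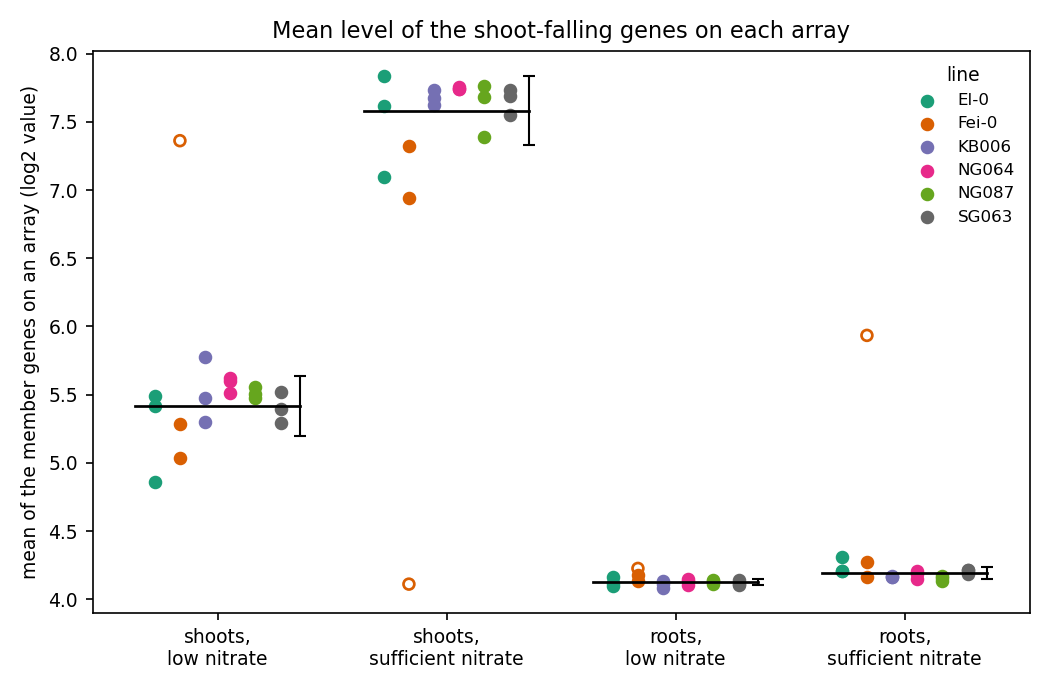
Mean log2 level of the 167 members on each array (y axis) by organ and nitrate supply (x axis), coloured by line. Filled points are the arrays used, with their mean and SD at the right of each group (n = 17), and open points are the arrays labelled Fei-0 replicate 3, which were left out. Low-nitrate shoots lie between 4.86 and 5.78, below sufficient-nitrate shoots at 6.94 to 7.83, and the roots of both supplies lie near 4.1 to 4.2.

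The median shoot response of the members was -1.90, with a range of -5.437 to -1.502, and 21 members were at -3 or less. Their median root response was -0.02, whereas the medians over all 13513 single-gene probe sets were 0.00 in both organs. Of the members 163 were lower at low nitrate in shoots of 6 of 6 lines, beside 16.9% of the single-gene probe sets, and 130 were lower by 1 or more in each line. Both counts use the line responses whose mean chose the members. The median per line ran from -1.93 in Fei-0 to -2.11 in El-0. For 59 members every low-nitrate shoot array lay below every sufficient-nitrate shoot array, beside 2.20% of all 22746 probe sets. That count uses the same values as the rule. By the test of the mean shoot response, 21.9% of all probe sets fell and 28.0% rose; all 167 members were chosen to be among the falls. In roots, where the rule bounded the size of the response, 42 members were called as falls of under 0.5 and 13 as rises of under 0.5, beside 19.1% and 23.6% of all probe sets.

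The floor of the array limits what could be seen in roots. The background-corrected values have a lowest value of 2.11, and 61 members (36.5%) were below 2.5 in roots at both supplies, where a fall could hardly be measured. The share was 33.96% among all single-gene probe sets (4589). The other 106 members were above that level in roots at one supply or both. Of these, 10 were below it at 1 supply, and 31, those 10 included, were within 1 log2 unit of the lowest value at one supply or both, where a fall could be cut short as well. The remaining 75 stood at least 1 above the lowest value in roots at both supplies. In shoots at low nitrate 18 members were below 2.5, so that their shoot fall may be understated. A further 131 genes had a shoot response of -1.5 or less and a root response below -0.5, with medians of -1.92 in shoots and -1.19 in roots, and none of these was at the floor in roots at both supplies.

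**Figure D2:**
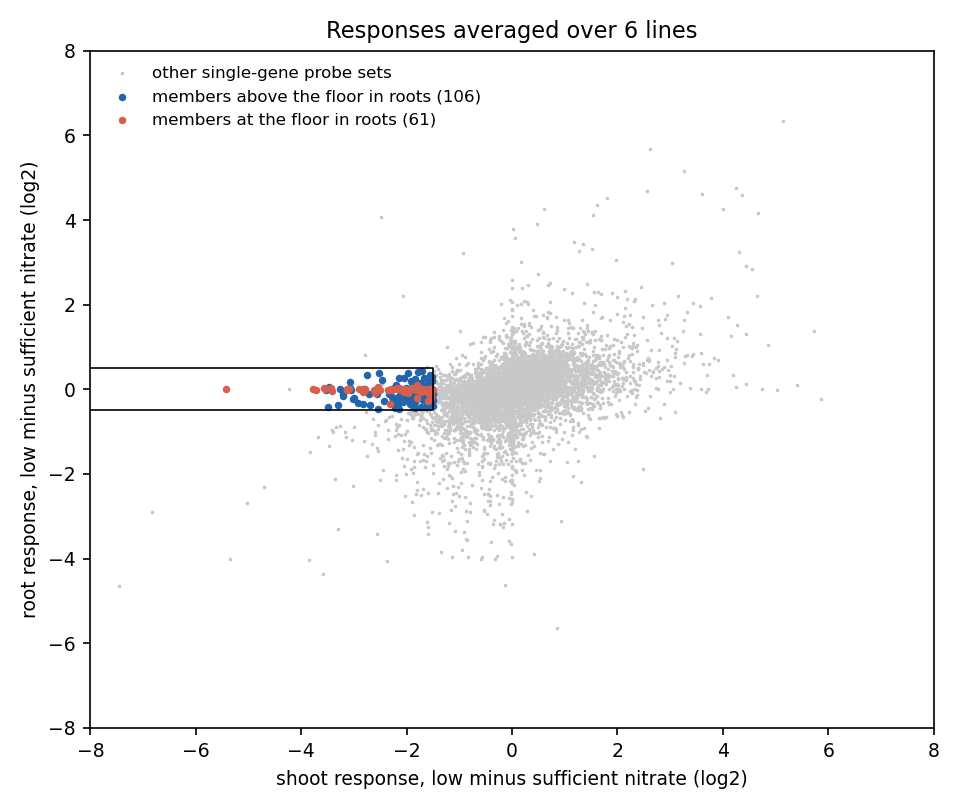
Shoot response (x axis) against root response (y axis), both low minus sufficient nitrate on the log2 scale and averaged over 6 lines, for 13513 single-gene probe sets. The lines mark the limits of -1.5 in shoots and of -0.5 and 0.5 in roots. Most of the 61 members at the floor in roots (red) lie close to 0 on the y axis, and the 106 others (blue) fill the range between the root limits. Grey points inside the limits are the genes left out by symbol or genome.

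Near the limits the choice separated genes of almost equal response. The 4 members just inside the shoot limit, AT4G28025, AT1G67050, AT2G44230 and AT1G15830, had responses of -1.507 to -1.502, and the 4 genes just outside it, AT2G41330, SETH3, AT1G13650 and AT2G46910, of -1.497 to -1.489. At the root limit AT2G05160 and ARR15 were inside with root responses of -0.48 and -0.45, and AT1G75460 and AT4G34090 were outside, both at -0.50.

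The 20 members with the largest shoot falls had responses from -5.44 to -3.06, and 18 of them carry no name in the gene tables. AT3G28220 had the largest fall: its shoot level was 2.12 to 4.92 at low nitrate (median 2.46) and 6.22 to 9.30 at sufficient nitrate (median 8.79), and its root level was 2.15 on every array. The 2 shoot groups did not overlap, and at low nitrate the gene was near its root level. AT3G50560 was at 2.12 to 2.26 in low-nitrate shoots (median 2.12) and at 3.34 to 6.94 in sufficient-nitrate shoots (median 6.39), with root levels of 2.12 to 2.26. AT5G03120 was brighter, at 4.15 to 7.86 in low-nitrate shoots (median 6.46) and 9.18 to 10.88 in sufficient-nitrate shoots (median 9.78). These 3 genes, together with AT4G15700, AT2G42900, AT2G34930 and AT5G01015, make up the 7 of the 20 whose shoot groups did not overlap. AT4G12830 (-3.77), AT4G10910 (-3.57), AT5G50915 (-3.55), AT5G02540 (-3.47), AT1G69523 (-3.44), AT2G29300 (-3.27), AT4G16563 (-3.22), AT1G02660 (-3.20), AT4G28780 (-3.14), AT3G62950 (-3.12) and AT2G41990 (-3.10) had overlapping groups, as had the named genes Fes1B and THI2.2. AT4G16563 differed from the others of the 20 in its root level, which was 5.13 to 6.87 at low and 4.75 to 6.47 at sufficient nitrate, between its shoot medians of 4.03 at low and 7.48 at sufficient nitrate.

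Of the 167 members 138 had no name. The gene lists used below were matched by name, so these 138 could not be counted in them. A name was available for the other 29. They are described by role, since the name and not the value decided which of them appear, and the roles were assigned by hand after the members were known. Several named members act in cell growth or in the cell wall. SKU5, a GPI-anchored protein related to multicopper oxidases that acts in directional cell growth, was at 8.81 to 10.35 in low-nitrate shoots (median 10.16), against 11.22 to 12.42 in sufficient-nitrate shoots (median 12.06), with no overlap, and its root medians were 11.12 at low and 11.32 at sufficient nitrate. EXO (EXORDIUM), a brassinosteroid-responsive protein that promotes leaf cell expansion, was at 7.34 to 11.70 in low-nitrate shoots (median 8.47), against 8.84 to 11.73 in sufficient-nitrate shoots (median 10.48). Fei-0 was high in EXO at both supplies, with 10.34 ± 1.92 at low and 11.54 ± 0.27 at sufficient nitrate (mean ± SD over 2 arrays each), and the groups overlapped. THE1 (THESEUS1), a receptor kinase that senses the state of the cell wall, had a shoot response of -1.53, with medians of 8.02 at low and 9.51 at sufficient nitrate. GSO1, a receptor kinase needed for the embryonic cuticle and the Casparian strip of the root endodermis, had shoot medians of 4.44 at low and 6.00 at sufficient nitrate and stood at 8.54 and 8.35 in roots of the same supplies. RALFL22, a secreted peptide of the RALF type, some of which are ligands of receptor kinases related to THE1, had shoot medians of 8.13 at low and 9.69 at sufficient nitrate and root medians of 10.47 and 10.55.

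EXLA2, an expansin-like wall protein, was near the floor on every low-nitrate shoot array (2.11 to 2.34) and at 2.82 to 4.90 in sufficient-nitrate shoots, with no overlap. AT2G18010, whose alias is SAUR10, belongs to the small auxin-up RNA genes, many of which promote cell expansion. Its shoot median was 2.11 at low and 5.06 at sufficient nitrate, and it was at the floor on every root array. In Fei-0 shoots it was at the floor at both supplies, whereas its response was -3.65 in NG064. ACT11, an actin of growing and reproductive tissue, had shoot medians of 5.16 at low and 6.80 at sufficient nitrate, and root medians of 8.83 and 8.56. KICP-02, a kinesin, had shoot medians of 4.94 at low and 6.73 at sufficient nitrate. Of 5 measured genes of leaf growth, SAUR10 was the only member, and of the other 4 TCP15 fell in shoots (-0.62 ± 0.17, SE, adjusted p = 0.00354) and none rose. Of 15 measured auxin genes other than the IAA family it was again the only member. Of the other 14, HAT2 fell in shoots (-0.85 ± 0.24, adjusted p = 0.00412), and 3 rose, among them GH3.17 (2.02 ± 0.20, adjusted p = 1.23e-08) and WES1 (1.5 ± 0.40, adjusted p = 0.00278), which both encode enzymes that conjugate auxin to amino acids. AUR1 and AUR2, the measured 2 of 5 markers of dividing cells, summed to 7.6 to 11.7 in low-nitrate shoots and 8.8 to 13.1 in sufficient-nitrate shoots, with overlap. AUR1 fell by 1.29 ± 0.25 (SE, adjusted p = 0.000106), and the response of AUR2 was -0.67 ± 0.24 (adjusted p = 0.0212). Of 7 measured genes of mitotic kinases and spindle proteins, these 2 included, 3 fell and 0 rose in shoots, with a median response of -0.175. The list of DNA replication and E2F targets had 9 measured genes, most of them histone genes. Of these 4 fell and 1, the histone gene HIS1-3, rose, with a median of -0.251. The counts therefore say little about replication genes proper. The part of dividing cells in the members' fall was not tested.

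Other named members are nuclear genes of chloroplast proteins. NdhL and NdhN are nuclear-encoded subunits of the chloroplast NDH complex, which carries electrons around photosystem I. NdhL was at 7.90 to 9.70 in low-nitrate shoots (median 8.60), against 9.93 to 10.88 in sufficient-nitrate shoots (median 10.36), and NdhN was at 7.27 to 8.09 (median 7.56), against 8.63 to 10.32 (median 9.34). Neither gene's shoot groups overlapped, and both genes were at the floor in roots, at no more than 2.22. LrgB, a transporter of glycolate and glycerate in the chloroplast envelope that serves photorespiration, was at 8.66 to 9.95 in low-nitrate shoots (median 8.99) and 10.29 to 11.23 in sufficient-nitrate shoots (median 10.72), again with no overlap. SECE1, a subunit of the thylakoid Sec translocase, did not overlap either, with medians of 5.29 at low and 6.87 at sufficient nitrate. UPP, a uracil phosphoribosyltransferase of pyrimidine salvage, had medians of 7.12 at low and 8.81 at sufficient nitrate in shoots, and unlike the other 4 genes it was well measured in roots, at 7.28 and 7.21. AT4G14480, whose alias is BLUS1, is a kinase that phototropins phosphorylate in guard cells to open stomata. It had shoot medians of 4.85 at low and 6.65 at sufficient nitrate, with response estimates between -1.94 and -1.70 in the 6 lines.

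The 2 NDH subunits were the only members among 32 measured nuclear genes of photosynthesis and chlorophyll synthesis. Of the other 30, 23 fell and 2 rose in shoots, and 22 fell and 1 rose in roots. HEME1, of tetrapyrrole synthesis, had a shoot response of -1.51 ± 0.11 (SE, adjusted p = 1.12e-10) and a root response of -0.65 ± 0.09 (adjusted p = 4.40e-06). CHL, the chloroplastic lipocalin, had a shoot response of -1.48 ± 0.13 (adjusted p = 1.91e-09) and a root response of -1.2 ± 0.11 (adjusted p = 1.73e-09). The shoot rises were PPDK (1.63 ± 0.17, adjusted p = 1.52e-08), a pyruvate, phosphate dikinase, and PGRL1B (0.22 ± 0.09, adjusted p = 0.0427). NdhS, the other nuclear NDH subunit with a probe set of its own, fell in both organs: its response was -0.63 ± 0.10 in shoots (adjusted p = 7.82e-06), and its root response was -2.03 ± 0.11 (adjusted p = 5.81e-13). NdhS was taken up after its values were seen, as were the relatives of members named below.

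**Figure D3:**
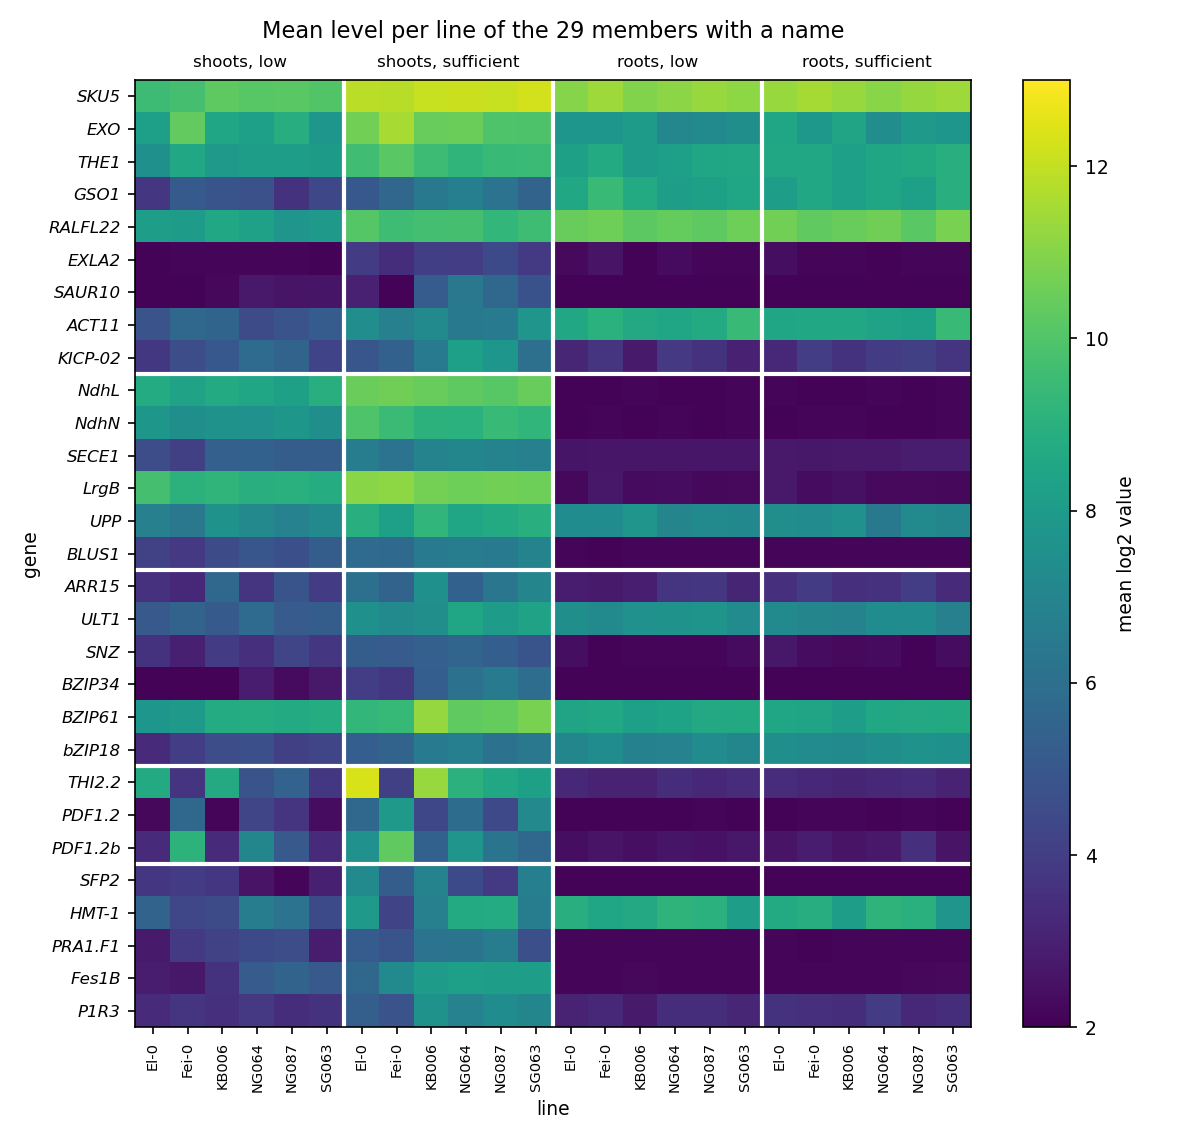
Mean log2 level (colour) of the 29 members with a name (rows, grouped by role from top to bottom: growth and wall, chloroplast and guard cell, regulators, defence, others) in each line (columns, n = 3 per mean, 2 for Fei-0), for shoots and roots at low and sufficient nitrate. NdhL, NdhN and LrgB are dark in all root columns, whereas GSO1, RALFL22, ACT11 and HMT-1 are brighter in roots than in shoots.

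Regulatory genes among the members came from several families. ARR15, a type-A response regulator that cytokinin induces and that dampens cytokinin signalling, was at 2.40 to 6.56 in low-nitrate shoots (median 3.83), against 5.12 to 7.98 in sufficient-nitrate shoots (median 6.23), and its root medians were 3.02 and 3.70. It was the only gene that the symbols of the type-A list matched. ULT1 (ULTRAPETALA1), a trithorax-type factor that limits the size of shoot and floral meristems, was at 4.68 to 6.28 in low-nitrate shoots (median 5.24), against 6.50 to 8.98 in sufficient-nitrate shoots (median 7.67), with no overlap, and its root medians were 7.46 and 7.08. SNZ (SCHNARCHZAPFEN), an AP2-type repressor of flowering, had a shoot response of -1.57 with overlapping groups, and its relative SMZ did not pass the test in shoots (0.10 ± 0.11, SE, adjusted p = 0.505). The bZIP factors BZIP34, BZIP61 and bZIP18 (AT2G40620) were members, with shoot responses of -2.90, -1.77 and -1.93. BZIP34 was at the floor in roots, whereas bZIP18 stood at medians of 7.08 at low and 7.47 at sufficient nitrate there. Of the other 17 measured bZIP factors 3 fell and 6 rose in shoots. bZIP52 fell by 0.96 ± 0.15 (adjusted p = 6.15e-06), and bZIP44 rose by 1.81 ± 0.24 (adjusted p = 7.66e-07). BZIP60, a sensor-processed factor of the endoplasmic reticulum stress response, rose by 1.05 ± 0.07 (adjusted p = 7.21e-12).

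Secreted defence peptides formed a smaller group with large differences between pools. THI2.2, a thionin, was at 3.46 to 9.72 in low-nitrate shoots (median 5.23), against 3.92 to 13.56 in sufficient-nitrate shoots (median 8.83). PDF1.2, a plant defensin induced by jasmonate with ethylene, was at 2.12 to 7.18 in low-nitrate shoots (median 2.45), against 2.13 to 9.16 in sufficient-nitrate shoots (median 6.45). PDF1.2b, its close copy, had medians of 4.27 at low and 6.86 at sufficient nitrate, and its probe set is of the kind that can bind related transcripts, so the 2 defensins may share signal. In all 3 genes the shoot groups overlapped widely, and the level differed between lines and between replicates of a line. Of 30 genes in the list of jasmonate response and defence proteins these 3 were members. Of the other 27, 5 fell and 10 rose in shoots. PDF1.4 fell by 1.3 ± 0.34 (SE, adjusted p = 0.00274), and the transcription factor gene WRKY6 rose by 1.84 ± 0.23 (adjusted p = 2.81e-07). The list was matched by name, so the counts do not describe defence proteins alone. The falls include the peptide deformylases PDF1A (-0.44 ± 0.08, adjusted p = 3.90e-05) and PDF1B, which fell by 0.98 ± 0.14 (adjusted p = 1.80e-06). The rises include CHI, an enzyme of flavonoid synthesis, which rose by 2.56 ± 0.30 (adjusted p = 1.50e-07).

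Of the remaining named members, SFP2, a sugar transporter, was at 2.11 to 4.59 in low-nitrate shoots (median 3.15) and 3.17 to 7.80 in sufficient-nitrate shoots (median 6.20), and it was at the floor in roots. Its relative SFP1 did not pass the test in shoots (-0.22 ± 0.14, SE, adjusted p = 0.218) and fell in roots by 0.65 ± 0.08 (adjusted p = 3.19e-07). HMT-1, a homocysteine S-methyltransferase of methionine synthesis, had shoot medians of 5.29 at low and 7.44 at sufficient nitrate, and root medians of 8.86 and 8.65. In Fei-0 shoots HMT-1 was at 4.35 ± 0.83 under low and 4.27 ± 0.70 under sufficient supply (SD over 2 arrays each), whereas the other 5 lines had responses of -2.57 to -2.08. PRA1.F1, of the prenylated RAB acceptor family of membrane traffic, had shoot medians of 4.16 at low and 5.91 at sufficient nitrate. Fes1B, of a family of HSP70 exchange factors, had medians of 4.53 at low and 7.97 at sufficient nitrate. Its relatives moved apart: the response of Fes1A was 1.15 ± 0.21 in shoots (SE, adjusted p = 5.02e-05) with a root response of 1.46 ± 0.12 (adjusted p = 5.16e-10), and that of Fes1C was -0.89 ± 0.18 in shoots (adjusted p = 0.000236) with a root response of -0.34 ± 0.09 (adjusted p = 0.00312). P1R3 had medians of 3.44 at low and 6.63 at sufficient nitrate in shoots.

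Relatives of the wall genes showed how a family was split by the choice. EXLA1 fell by 2.79 ± 0.36 in shoots (SE, adjusted p = 6.12e-07), more than EXLA2 with its response of -1.80, but rose by 0.80 ± 0.14 in roots (adjusted p = 4.52e-05) and so lay outside the root limits. EXLB1 rose by 1.40 ± 0.25 in shoots (adjusted p = 5.42e-05). Of 10 other measured RALF-like peptides 3 fell and 1 rose in shoots. RALFL24 fell by 1.97 ± 0.12 (adjusted p = 5.53e-12) and missed the choice through its root response of -0.56 ± 0.10, and RALFL33 fell by 1.24 ± 0.10 (adjusted p = 4.61e-10). FER (FERONIA), the receptor kinase most often studied beside THE1, fell by 0.39 ± 0.10 in shoots (adjusted p = 0.00321). The other 22 of 27 gene lists, among them those for mitosis, DNA replication, sugar starvation, starch, the clock, glucosinolates, sulfate, phosphate, iron, flavonoids and flowers, held 0 members, with 0 to 51 measured genes each. Since the lists were matched by name, the 138 members without a name could not appear in them, and these zeros do not show that such genes are absent from the members.

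The organs were compared by level. Averaged over both supplies, 139 of 167 (83.2%) were higher in shoots than in roots, beside 29.0% of all probe sets, and 22 (13.2%) were lower, beside 40.7%. A difference of 3 or more on the log2 scale was found for 58 members (34.7%), beside 5.25% of all probe sets. The median difference, shoot minus root, was 2.13. The choice fixes part of this, since a fall of 1.5 above the lowest value needs a shoot mean of about 3.61 or more at sufficient nitrate. Among the 14338 probe sets that reached it, a comparison added after the values were seen, 38.0% were higher in shoots, 50.2% were lower, and 8.32% were higher by 3 or more. For the 61 members at the floor in roots the choice also fixes the direction. Among the other 106, 78 were higher and 22 lower in shoots, with a median of 1.47. These 106 include the 31 within 1 log2 unit of the lowest value in roots at one supply or both. For those nearest to it the choice fixes the direction as well, so the 78 follow in part from the choice. Among the 131 genes that fell in both organs, 95 were higher and 28 lower in shoots, with a median of 1.39.

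AT1G22690, LrgB, NdhL and AT2G29290 had the 4 highest fitted organ differences. AT1G22690 was at 9.57 to 11.02 in low-nitrate shoots and 11.35 to 12.40 in sufficient-nitrate shoots. In roots of the same supplies it was at 2.33 to 3.07 and 2.25 to 3.13. Its fitted difference between organs was 8.50 ± 0.07 (SE, limma). The other 3 were at the floor in roots. Their difference is a lower bound, taken against 2.5: at least 7.45 for LrgB, at least 6.99 for NdhL and at least 7.03 for AT2G29290. The root level of AT1G22690, with means of 2.61 at low and 2.66 at sufficient nitrate, was itself close to the floor. Its difference may therefore be understated as well. In all 4 genes the choice fixes the direction, so no p-value is given for them. In these 4 genes even the lowest shoot array at low nitrate was above every root array. At the other end GSO1 was lower in shoots by 3.34 ± 0.13 (organ difference -3.34, adjusted p = 2.60e-27), ACT11 by 2.66 ± 0.13 (-2.66, adjusted p = 7.76e-24), HMT-1 by 2.43 ± 0.16 (-2.43, adjusted p = 5.81e-19) and AT1G76240 by 2.31 ± 0.11 (-2.31, adjusted p = 1.58e-23). These genes were well measured in roots, with root medians of 7.55 to 8.86, above the floor on every root array. By the rule the shoot level of every member comes at least 1 closer to, or further below, its root level at low nitrate, and the counts follow from that: 124 members were higher in shoots than in roots by group means at low nitrate and 153 at sufficient nitrate. The 29 that were higher in shoots at sufficient nitrate alone include SKU5, THE1, UPP and ULT1.

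**Figure D4:**
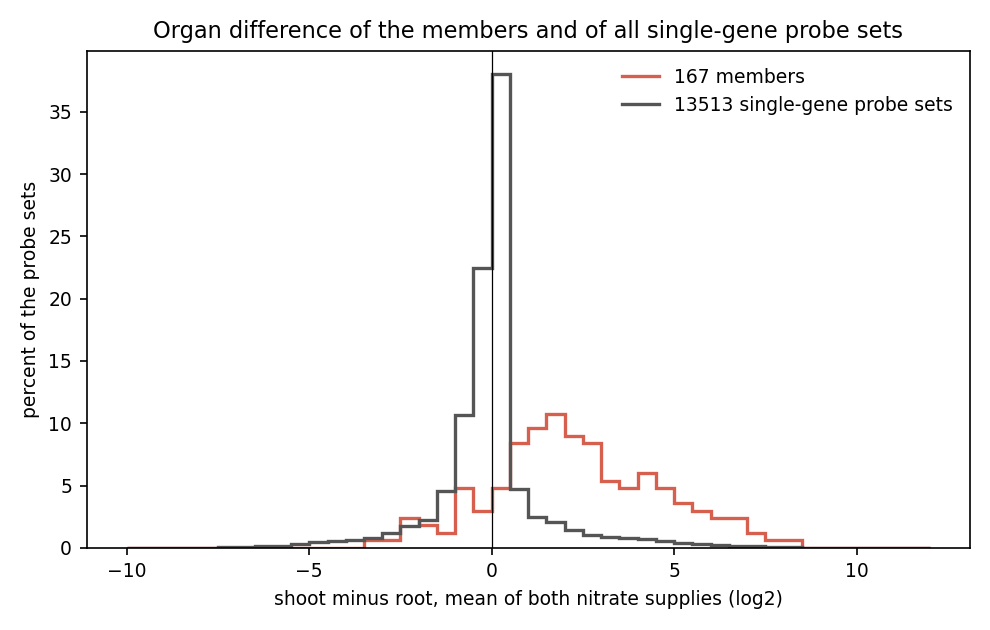
Distribution of the organ difference, shoot minus root, averaged over both nitrate supplies (x axis, log2, bins of 0.5), as percent of the 167 members (red) and of 13513 single-gene probe sets (grey). The members are spread from -3.34 to 8.50 around a median of 2.13, whereas the grey curve peaks near 0, where probe sets at the floor in both organs lie.

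The response differed between lines for few members. By the F test of the line by nitrate interaction in shoots 6 of 167 members (3.59%) were called, beside 1.11% of all probe sets. With the replicate number within line as a block 4 of the 6 were called, without AT3G06840 (adjusted p = 0.0771) and AT1G52990 (adjusted p = 0.0831). Without replicate 1, and again without replicate 2, only 3 of the 6 were called, and AT1G68110 was the only one called in each of these fits and without replicate 3. AT1G68110 was at 2.11 in low-nitrate shoots of all 6 lines, and at sufficient nitrate it was at 5.13 ± 0.30 in KB006, 4.72 ± 0.32 in NG087 and 4.71 ± 0.17 in NG064, against 2.75 ± 0.57 in El-0, 2.62 ± 0.40 in SG063 (SD, n = 3 each) and 2.12 ± 0.02 in Fei-0 (n = 2). Its interaction had an adjusted p of 6.77e-07, the smallest among the members. AT1G53690 had a response of -5.81 ± 0.49 in SG063, where it was at 3.80 ± 1.44 at low and 9.61 ± 0.28 at sufficient nitrate, against -0.18 ± 0.60 in Fei-0 and -0.37 ± 0.49 in KB006 (SE; interaction adjusted p = 0.000293). AT5G02170 responded by -3.81 ± 0.40 in NG087 and -2.90 ± 0.40 in KB006, against -0.13 ± 0.49 in Fei-0 (SE; adjusted p = 0.00171). AT1G52990 had a response in NG064 (-4.19 ± 0.54) and NG087 (-3.30 ± 0.54), the 2 lines from the same cross, against 0.00 ± 0.66 in Fei-0 and -0.04 ± 0.54 in KB006 (SE; adjusted p = 0.00626).

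AT3G06840 had its largest response in KB006, -3.19 ± 0.31, against -0.87 to -2.21 in the other lines (adjusted p = 0.0113). AT3G48420 was the only one of the 6 that was well above the floor on all shoot arrays, while its root median was 2.35 at both supplies. At sufficient nitrate its 6 line means in shoots lay between 11.07 and 11.41, whereas at low nitrate it was at 10.09 ± 0.24 in KB006 and between 8.17 and 9.02 in the other lines. Its response was -1.31 ± 0.18 in KB006 and -2.94 to -2.32 elsewhere (adjusted p = 0.0178). The next 2 members by p, AT3G50560 (adjusted p = 0.0624) and AT1G64150 (adjusted p = 0.116), did not pass the threshold. AT3G50560 was at -4.70 ± 0.39 in El-0 and -2.28 ± 0.47 in Fei-0. A p above the threshold does not show that the lines respond alike. With 3 pools per group, or 2 in Fei-0, a line's response had a standard error of 0.18 to 0.66 in these 8 genes.

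**Figure D5:**
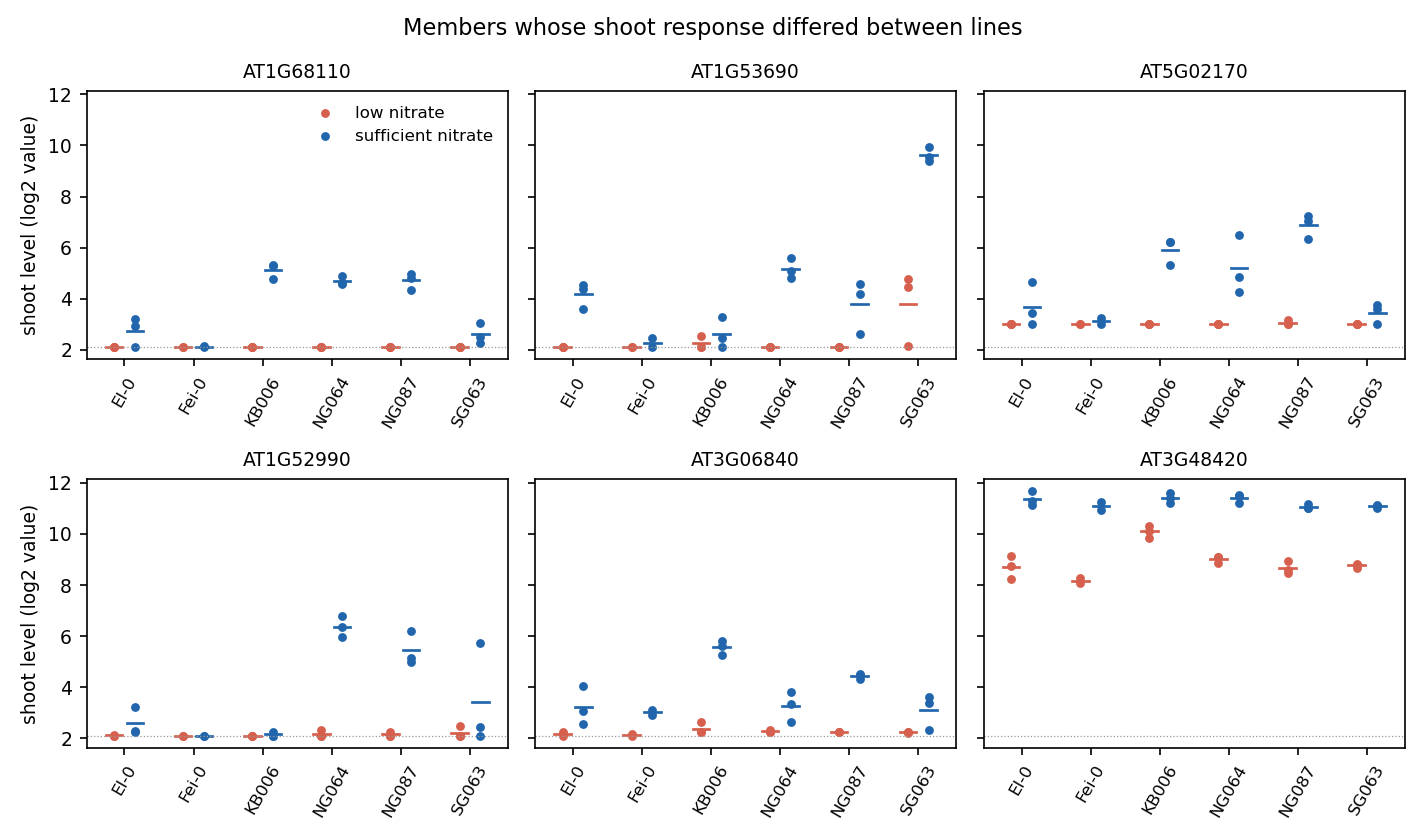
Shoot levels (y axis, log2) of the 6 members called for the line by nitrate interaction, in each line (x axis) at low nitrate (red, left) and sufficient nitrate (blue, right); points are pools and bars their means, and the dotted line marks the lowest value of the table, 2.11. In AT1G68110 all low-nitrate points lie on that line and KB006, NG064 and NG087 stand above the other lines at sufficient nitrate, whereas in AT3G48420 the lines differ at low nitrate, where KB006 is highest.

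In roots 5 members (2.99%) had a line by nitrate interaction, beside 6.24% of all probe sets. The floor limits this comparison, since 61 members were below 2.5 in roots at both supplies. With dim probe sets left out (those not above 5 on at least 3 root arrays), 7 of 53 members were called, beside 11.8% of all probe sets tested. The 5 calls depend on single replicates: without replicate 1 none of the 5 was called (3 other members were), without replicate 2 only AT4G15700 was (with 5 other members), and without replicate 3 no member was. With the replicate number within line as a block, and also with all 72 arrays, AT4G15700 was the only call. AT4G15700 had a root response of -1.62 ± 0.18 in NG087, with 2.17 ± 0.03 at low and 3.79 ± 0.31 at sufficient nitrate (3 arrays each, SD), and of -0.38 to -0.02 in the other lines (interaction adjusted p = 0.00157). Its mean root response over the 6 lines, -0.41, was inside the root limits, while that of NG087 lay outside them. AT1G57770 had a root response of -0.86 ± 0.13 in Fei-0 and of -0.11 to 0.03 elsewhere (adjusted p = 0.0179). GSO1 ran from -0.44 ± 0.20 in SG063 to 0.90 ± 0.25 in Fei-0 (adjusted p = 0.0304). AT5G62280 and AT1G19450 were the others, with adjusted p of 0.0278 and 0.0287.

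Levels in shoots, averaged over both supplies, differed between lines for 83 members (49.7%), beside 35.9% of all probe sets, and for 30 to 57 when 1 replicate was left out of every group. The background of all probe sets includes dim ones. With those not above 5 on at least 3 shoot arrays left out, 100 of 164 members differed, beside 55.6% of all probe sets tested. AT5G16010 was at 7.67 in KB006 and at 10.24 to 10.53 in the other 5 lines (adjusted p = 2.31e-14), and KB006 stood at 6.76 ± 0.40 at low and 8.57 ± 0.22 at sufficient nitrate (mean ± SD over 3 arrays each). AT2G36145 was at 6.68 in NG064 and at 8.78 to 9.52 in the others (adjusted p = 6.95e-11). THI2.2 was at 10.51 in El-0 and 10.03 in KB006, at 6.03 to 7.03 in SG063, NG064 and NG087, and at 3.87 in Fei-0 (adjusted p = 1.18e-09). In Fei-0 it stood at 3.65 ± 0.28 under low and 4.08 ± 0.23 under sufficient supply (SD over 2 arrays each), near its root level of 2.37 to 3.54. AT1G53690, described above for its response, was at 6.71 in SG063 and at 2.20 to 3.63 in the others (adjusted p = 5.22e-09). Among the genes with a name, KICP-02 was at 7.02 in NG064 and 6.64 in NG087 but at 4.37 in El-0 (adjusted p = 4.92e-07), and SFP2 ran the other way, at 3.52 in NG064 and 3.03 in NG087 but 5.51 in El-0 (adjusted p = 1.16e-05).

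Some members lay next to each other in the genome. In the order of the annotated protein-coding genes 4 pairs of members were immediate neighbours, which involved 7 genes. The share of such pairs among all measured genes was not counted, so the number is a description alone. AT2G29290, AT2G29300 and AT2G29310 formed a run of 3, with shoot responses of -2.61, -3.27 and -1.98. Their probe sets, whose signals are not set against each other, read as follows: AT2G29290 had medians of 8.40 at low and 10.95 at sufficient nitrate in shoots, AT2G29300 of 3.79 and 7.86, and AT2G29310 of 5.66 and 7.40. AT5G03120 and AT5G03130 had responses of -3.52 and -2.17, and AT1G69523 and AT1G69526 of -3.44 and -1.56. In roots AT1G69523 was near the floor, at 2.11 to 2.29, and AT1G69526 was measured, at 5.67 to 8.69. Neighbours that are close in sequence can share probe signal, which was not tested.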

How the data were processed

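Affymetrix arrays of shoots and roots were used as deposited. The values are log2 expression per probe set, made by the authors; GCRMA, affy and limma are listed in the submitters' processing notes without versions, and the set of arrays normalised jointly is unknown here. No filter or further normalization was applied to the 22746 probe sets, and 13508 of 13513 single-gene probe sets matched the TAIR10.1 gene table, used for names and gene order alone. Members and gene lists were chosen with earlier results of these data known.

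With limma 3.58.1 (R 4.3.3), group means were fitted per organ (34 arrays, 12 groups) and over both organs (68 arrays), and p-values were adjusted by Benjamini-Hochberg over all probe sets, called below 0.05. Errors of responses are moderated SEs. The fit was tested on simulated data. Named genes are the 20 largest falls, those nearest the limits, the smallest interaction and line-level p, the extreme organ differences and list members; every member with a name was added afterwards. Same-numbered low- and sufficient-nitrate replicates correlated above 0.1 in their deviations in 11 of 17 shoot pairs (all 3 pairs of KB006, NG087 and SG063) and in 3 of 17 root pairs, so the numbers did not pair all samples and the block is an alternative. Probes follow the reference accession, and a line that differs from it under a probe can read low. The number of arrays limits the precision.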

Additional observations from a re-analysis of the deposited data

Results flagged for a closer look

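Members whose response differed between lines are listed with the line furthest from the other 5, as the difference of its response from their mean, with its SE. In shoots AT1G53690 was lower by 4.35 ± 0.54 in SG063 (-4.35), AT1G52990 by 3.19 ± 0.60 in NG064 (-3.19), AT5G02170 by 2.54 ± 0.44 in NG087 (-2.54) and AT3G06840 by 1.99 ± 0.34 in KB006 (-1.99). The fall was weaker by 1.86 ± 0.27 in Fei-0 for AT1G68110 (1.86) and by 1.23 ± 0.20 in KB006 for AT3G48420 (1.23). The adjusted p of these line deviations ran from 0.000117 to 0.0233.

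In roots AT4G15700 was lower by 1.44 ± 0.19 in NG087 (-1.44, adjusted p = 0.000381) and AT1G57770 by 0.80 ± 0.14 in Fei-0 (-0.80, adjusted p = 0.00448). The deviations of AT5G62280 in SG063 (-0.61 ± 0.18, adjusted p = 0.146), GSO1 in Fei-0 (0.86 ± 0.26, adjusted p = 0.115) and AT1G19450 in NG087 (0.64 ± 0.15, adjusted p = 0.0662) did not pass the threshold by themselves, although the interaction did.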

How the results depend on the processing

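With all 72 arrays, which brings back the 4 labelled Fei-0 replicate 3, the rule gave 107 members (101 of them among the 167), the median response was -1.67 in shoots and -0.17 in roots, and 1 member had a root interaction and 36 a difference between line means. With the shoot limit moved by 0.25 the rule gave 252 members (less strict) and 109 (stricter), and it gave 229 with arrays centred on their median and 203 by quantile normalization. Leaving out replicate 1, 2 or 3 gave 145 to 200 members, 0 to 6 with a root interaction (3 without replicate 1, 0 without replicate 3) and 30 to 57 with a difference between line means (52 without replicate 2, 30 without replicate 3); the cause was not tested beyond the fewer arrays. The replicate number within line as a block (replicate block) left 1 root and 4 shoot interactions. The organ difference of AT4G16563 (-0.09, not called) turned to 0.011 with all arrays and ran from -0.27 without replicate 1 to 0.069 without replicate 3, and that of SKU5 was not called with all arrays or without Fei-0. The shoot interaction counted 4 to 6 members under the alternatives, of which 3 to 6 were among the 6 reported; members higher in shoots numbered 136 to 142 and lower 21 or 22. The floor and 3 pools per group limit what could be seen.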

Other observations

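The 4 arrays labelled Fei-0 replicate 3, which the choice of members did not use, carried these genes as follows. The array labelled shoot at low nitrate had a mean of 7.36 over the 167 members and was within the range of the sufficient-nitrate shoot arrays for 149 of them, and within that of the low-nitrate shoot arrays for 37. The array labelled shoot at sufficient nitrate had a mean of 4.11 and was within the range of low-nitrate roots for 146 members. The array labelled root at low nitrate had a mean of 4.23 and was within the range of sufficient-nitrate roots for 155 and of low-nitrate roots for 137. The array labelled root at sufficient nitrate had a mean of 5.93 and was within the range of low-nitrate shoots for 123 members and of sufficient-nitrate roots for 40. No array was given another label.

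In Fei-0 shoots 5 members, AT1G52990, AT1G53690, AT1G68110, AT1G75960 and AT2G18010, were below 2.5 at both supplies, and in KB006 shoots AT1G52990 was. In the other 4 lines no member was. Of the 2 stomatal lineage markers measured, SPCH had shoot medians of 2.31 at low and 2.59 at sufficient nitrate and MUTE of 2.11 at both.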
